A study of Mus musculus with 4 samples.

Results

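The SOCS family and the PIM kinases include genes that cytokine signals switch on through STAT transcription factors. In mouse T helper 17 (Th17) cells 10 genes of these families were followed here: Socs1 to Socs7, Cish, Pim1 and Pim2. They were taken by gene symbol from the 50600 genes of the count tables, and all 10 were found. Pim3, the remaining PIM kinase, is set beside them where the PIM genes are summed. The cells were primary Th17 cells of mouse strain C57BL/6NJ, and the headers of the count tables read 72 hr. The 4 libraries, biological replicates 1 to 4, make up 1 group, and nothing was set against a control. The labels place 4 biosamples under 1 donor identifier, give the age as unknown and the sex as not collected. They point to a protocol by which CD4 T cells were differentiated. The cytokines used and the number of animals are not stated in the sources used here. The p-values therefore measure the spread between these samples, which may be technical.

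Library totals ran from 33123029 to 37746767 counts. Replicate 2 stood apart: a chi-square of the counts per degree of freedom was 40.5 to 45.3 for pairs with replicate 2 and 4.22 to 6.16 for the other pairs. The 8 Th17 marker genes checked summed to 1527 TPM in replicate 2, against 5554 to 6304 TPM in replicates 1, 3 and 4 (TPM, a level corrected for gene length and library size). The 7 T cell markers lay closer together, at 2621 TPM in replicate 2, below the 2750 to 2839 TPM of the others. Their log2 changes in replicate 2 against the other libraries ran from −0.17 (Cd28) to 0.16 (Cd3g). Among other cell types, 7 myeloid markers summed to 23.3 TPM in replicate 2 and 20.3 to 22.2 TPM elsewhere. Nearly all of that sum was Cd68, Adgre1 and Cd14, with Lyz2 at 0. Cd68 and Cd14 were highest in replicate 2, at 12.1 and 5.17 TPM, and Adgre1 was lowest there, at 5.73 TPM. Foxp3, which defines regulatory T cells, stood at 0.0954 TPM or less. The 4 natural killer markers summed to 28.7 TPM in replicate 2, against 54.7 to 65.3 TPM in the others, nearly all of it Nkg7, with Ncr1 at 0 in every library. In bulk RNA, fewer cells with a transcript and less of it per cell cannot be told apart.

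When a cytokine binds its receptor, Janus kinases (JAKs) phosphorylate STAT factors, which enter the nucleus and bind DNA. SOCS proteins are among the genes that STATs then induce, and they close the loop: each has an SH2 domain that binds phosphotyrosine and a SOCS box that recruits an elongin and cullin ubiquitin ligase, and SOCS1 and SOCS3 also inhibit JAKs directly. In T cells several of the genes described here, Cish, Socs1, Socs2, Socs3 and Pim1 among them, are induced by STAT5 downstream of interleukin 2 (IL-2). SOCS3 restrains STAT3 signals from the IL-6 and IL-23 receptors that drive Th17 cells. PIM kinases are serine and threonine kinases that are active once made, and they promote survival, growth and cell cycle entry. Their protein amount was not measured here.

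The DNA that STAT dimers prefer, TTCNNNGAA, reads the same on both strands, and it was searched in the promoter windows that RefSeq gave for 6 of the 10 members (GRCm38.p6, 250 bases before and 50 bases after the annotated start). The Cish and Socs3 windows are shown because they were the ones with a match, which is in capitals.
Cish promoter, chr9:107296409-107296708, plus strand: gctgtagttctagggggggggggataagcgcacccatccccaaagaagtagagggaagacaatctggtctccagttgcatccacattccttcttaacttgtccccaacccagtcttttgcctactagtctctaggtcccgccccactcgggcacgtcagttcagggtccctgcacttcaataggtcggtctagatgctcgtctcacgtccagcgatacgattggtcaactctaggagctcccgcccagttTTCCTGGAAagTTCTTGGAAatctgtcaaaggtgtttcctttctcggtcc
Socs3 promoter, chr11:117969317-117969616, minus strand: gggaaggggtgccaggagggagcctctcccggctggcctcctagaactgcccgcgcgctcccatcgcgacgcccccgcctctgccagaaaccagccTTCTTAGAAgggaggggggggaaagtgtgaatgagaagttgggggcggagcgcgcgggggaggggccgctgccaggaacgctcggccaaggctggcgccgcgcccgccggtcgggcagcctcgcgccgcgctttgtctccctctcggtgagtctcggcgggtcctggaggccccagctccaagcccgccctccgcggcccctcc

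The Cish window held 2 matches, at chr9:107296659-107296667 and chr9:107296670-107296678, the first of them starting on the first base that RefSeq annotates as transcribed. The exons counted for Cish begin further upstream, at base 107296026 of chromosome 9. Of 32851 promoter windows of the same length 8.30% held TTCNNNGAA at least once, and 150 windows, or 0.457%, held it at least 2 times. The Socs3 window had 1 match, at chr11:117969512-117969520. The windows of Socs1, Socs4, Pim1 (at both of its annotated starts) and Pim2 had none, and no window of a member held the same motif with 1 base more in its spacer, found in 6.95% of all windows. A match is a string of letters and not a measured site, and a missing match covers only these 300 bases.

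**Figure D1:**
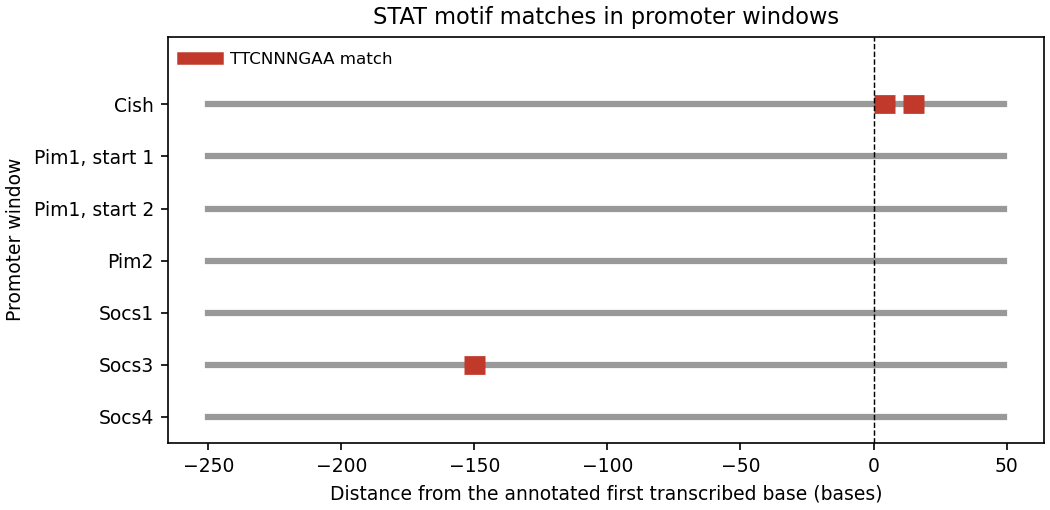
Positions of TTCNNNGAA (red blocks) in the promoter windows (grey lines) of the 6 members with a RefSeq window; the x axis gives the distance in bases from the annotated first transcribed base (dashed line). The Cish window carries 2 matches on its first transcribed bases and the Socs3 window 1 match upstream, while the other windows carry none.

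A second sequence feature bears on how fast such mRNAs decay: AU-rich elements in the 3′ untranslated region (3′ UTR), with TATTTAT as a core, recruit decay factors such as tristetraprolin. It was counted on the transcribed strand of each gene's longest coding transcript in GENCODE vM21, with overlapping copies counted. Pim1 held 4 copies, Cish 3, Socs3 and Pim3 2 each, Socs2, Socs4 and Socs5 1 each, and Socs1, Socs6, Socs7 and Pim2 none. The densest 30 bases of the 3 members with more than 1 copy are shown, with the copies in capitals.
Pim1 3′ UTR, bases 944 to 973: taatgTATTTATTTATTTATTTATttggtt
Cish 3′ UTR, bases 477 to 506: tatacagTATTTATTTATTTATtctccttg
Socs3 3′ UTR, bases 1389 to 1418: tgcacataTATTTATATTTATactcagaaa

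In each of these windows the copies overlapped in 1 unbroken run. Among genes with a 3′ UTR of 0.5 to 1.5 times the same length, 0.855% held at least as many copies as Pim1 and 1.80% at least as many as Cish, against 9.60% for Socs3. Over 20470 protein-coding genes 28.0% held a copy and 10.5% at least 2. The 2 most abundant PIM mRNAs thus differed in this feature, with 4 copies in the 1365-base 3′ UTR of Pim1 and none in the 915 bases of Pim2.

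The 10 genes spanned a wide range of levels. Pim2 was the highest with 319 ± 36.2 TPM, followed by Pim1 with 239 ± 25.2 TPM (mean ± SD, n = 4). Then came 3 SOCS genes close together, Cish at 141 ± 8.06, Socs3 at 122 ± 15.5 and Socs1 at 119 ± 24.2 TPM. Socs4 and Socs7 stood at 36.0 ± 1.55 and 35.8 ± 1.13 TPM, Socs5 at 13.9 ± 1.62, Socs6 at 9.90 ± 0.460 and Socs2 at 3.31 ± 0.448 TPM. Every member lay above 1 TPM, as did 70.6% of the 17337 genes tested (edgeR quasi-likelihood test, Benjamini-Hochberg adjusted over all of them). The member nearest to that level was Socs2, with a log2 level of 1.73 ± 0.08 (SE, adjusted p = 2.59e-07). Pim2 stood above 96.3% and Socs2 above 27.0% of the protein-coding genes tested.

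**Figure D2:**
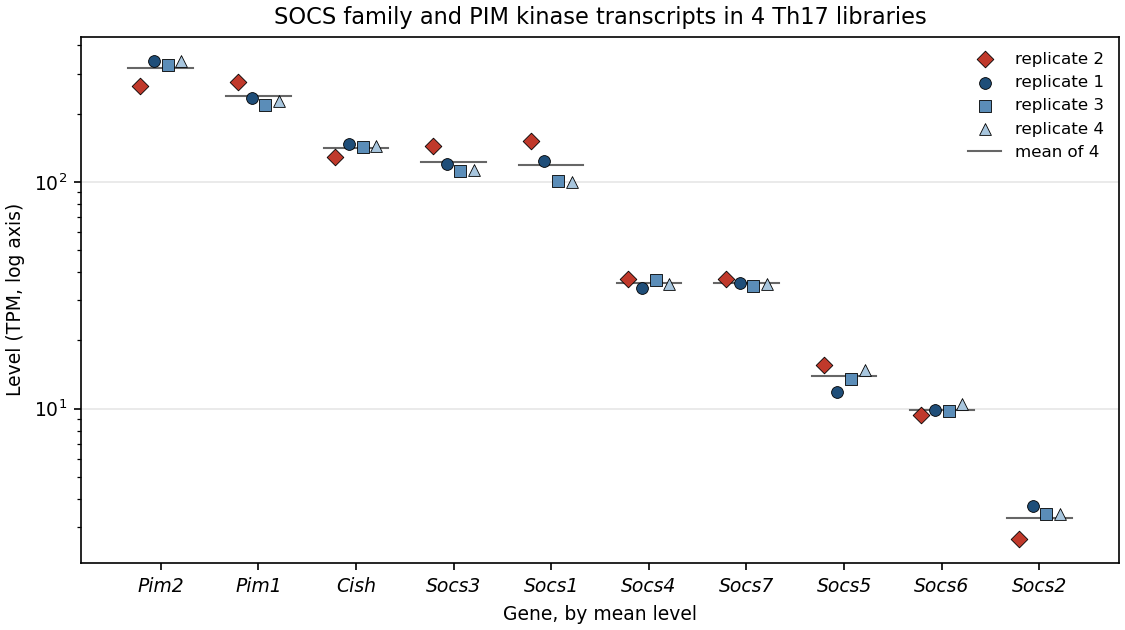
Level of each SOCS and PIM gene in TPM (log axis) in every library, with the mean of the 4 libraries as a line. Replicate 2 (red diamonds) lies below the other libraries for Pim2 and above them for Pim1, Socs3 and Socs1, while Socs4, Socs7 and Socs6 lie close together in all 4.

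Neighbours in this order were compared within each library on log2(TPM + 0.1), as 9 pairs. The order came from the mean levels in these same libraries, so the values compared also set which gene was the upper one. In 5 of the 9 pairs the upper gene was higher in every library and the ranges did not overlap: Pim1 over Cish by 0.76 ± 0.22, Socs1 over Socs4 by 1.70 ± 0.27, Socs7 over Socs5 by 1.37 ± 0.16, Socs5 over Socs6 by 0.48 ± 0.19 and Socs6 over Socs2 by 1.56 ± 0.16 (mean ± SD over 4 libraries; by an exact permutation test that flips signs, two-sided, p = 0.125 for each, or 0.225 adjusted over the 9 pairs). An unadjusted 0.125 is the smallest p that 4 libraries allow, so no pair could pass a threshold of 0.05. Pim2 over Pim1 (0.41 ± 0.31) and Cish over Socs3 (0.21 ± 0.25) held in 3 of 4 libraries, both with the opposite order in replicate 2 (n = 4, exact p = 0.25 for each, adjusted 0.321). Socs3 and Socs1 (0.05 ± 0.12) and Socs4 and Socs7 (0.00 ± 0.07) did not differ beyond their spread (n = 4, exact p = 0.5 and 0.75, adjusted 0.563 and 0.75).

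The order also rests on the length each count is divided by. For Cish the counted exons of all transcripts sum to 6419 bases, while its longest coding transcript has 2850, and for Socs2 the lengths are 9531 and 2222 bases. With all counted reads divided by the length of the longest coding transcript, Cish had 231 ± 13.1 TPM and stood above Pim1, with 170.5 ± 18.1 TPM. Their log2 difference turned to −0.44. Socs2 had 10.4 ± 1.397 TPM and stood above Socs6, with 9.84 ± 0.456 TPM. Reads on counted exons outside that transcript remained in these counts, which can raise the values of Cish and Socs2. Socs1 went the other way: 1220 bases were counted, against 2908 in its longest coding transcript. Reads on the remaining bases were not counted. The same counts over 2908 bases gave 36.3 ± 7.42 TPM, a value lowered by that mismatch. Pim2 stayed first, at 318 ± 35.9 TPM. The order found in replicate 2 was also that of the counted lengths: per longest coding transcript Pim2 stood above Pim1 there, with 265 and 197 TPM, and Cish above Socs3, with 212 and 119.6 TPM, as in the other libraries.

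All 10 genes are annotated as protein-coding (mm10). Pim2 lies on chromosome X (bases 7878262 to 7883432), and Pim1 (29490812 to 29496111) and Socs5 (87107679 to 87137583) both lie on chromosome 17. Socs3 (117966079 to 117970047) and Socs7 (97362551 to 97398542) are both on chromosome 11. Cish spans bases 107296026 to 107302784 of chromosome 9 and Socs1 bases 10783808 to 10785536 of chromosome 16. No exon base of a member was shared with another gene on the same strand. Opposite-strand genes covered 740 bases of Cish and 468 bases of Pim1, and the counting used strand.

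The comparison of each replicate with the other 3 asked how evenly the 10 members were expressed. Replicate 2 differed: Socs1, Socs3 and Pim1 rose and Pim2 fell, while the other 6 members did not pass the test. Of all 17337 genes 22.5% were called in this comparison, 11.7% higher and 10.9% lower, so that 4 of 10 members, 3 higher and 1 lower, is a small count to set beside that background. Their median log2 change was 0.14, against −0.01 over all genes tested. The test compares 1 library with 3, not conditions, and takes the spread of the single library to be that of the rest. The Th17 marker sum was also lower in replicate 2, with 5 of the 8 genes called lower and none higher, as were the natural killer sum and the sum of 2 CD8 markers (31.6 TPM in replicate 2, against 41.7 to 48.0 TPM in the others). Nearly all of the CD8 sum was Cd8b1, with Cd8a at 0.0785 TPM or less in every library. The part of these marker genes in the changes below was not tested.

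Socs1, which inhibits JAKs downstream of interferons and IL-2 family cytokines, had 151 TPM in replicate 2, against 123, 101 and 99.5 TPM in replicates 1, 3 and 4. Replicate 2 was the highest, but replicate 1 also stood above the remaining libraries. The rise was 1.46-fold (log2 0.55 ± 0.11, SE, edgeR adjusted p = 0.00179). Behind it stood 2113 counts in replicate 2, against 1486, 1298 and 1359.

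Socs3, the brake on IL-6 and IL-23 signals, had 145 TPM in replicate 2, against 120.1, 111 and 112 TPM in replicates 1, 3 and 4. The libraries other than replicate 2 lay within 10 TPM of each other, with an SD of 4.83 TPM. Socs3 rose 1.32-fold (log2 0.40 ± 0.05, edgeR adjusted p = 3.98e-06).

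Pim1 had 275 TPM in replicate 2, against 235, 219 and 227 TPM in replicates 1, 3 and 4. It rose 1.27-fold (log2 0.34 ± 0.05, edgeR adjusted p = 3.02e-05). Pim2 moved the other way, with 265 TPM in replicate 2, against 339.8, 329 and 342 TPM in replicates 1, 3 and 4. It fell to 0.822 of the level in the other libraries (log2 −0.28 ± 0.05, edgeR adjusted p = 0.00017). For both kinases replicate 2 lay outside the range of the other libraries, as it did for 71.4% of the genes tested. Pim3 had 145 TPM in replicate 2, against 150.4, 141 and 146 TPM, a value inside the range of the others (log2 0.06 ± 0.05, edgeR adjusted p = 0.482).

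**Figure D3:**
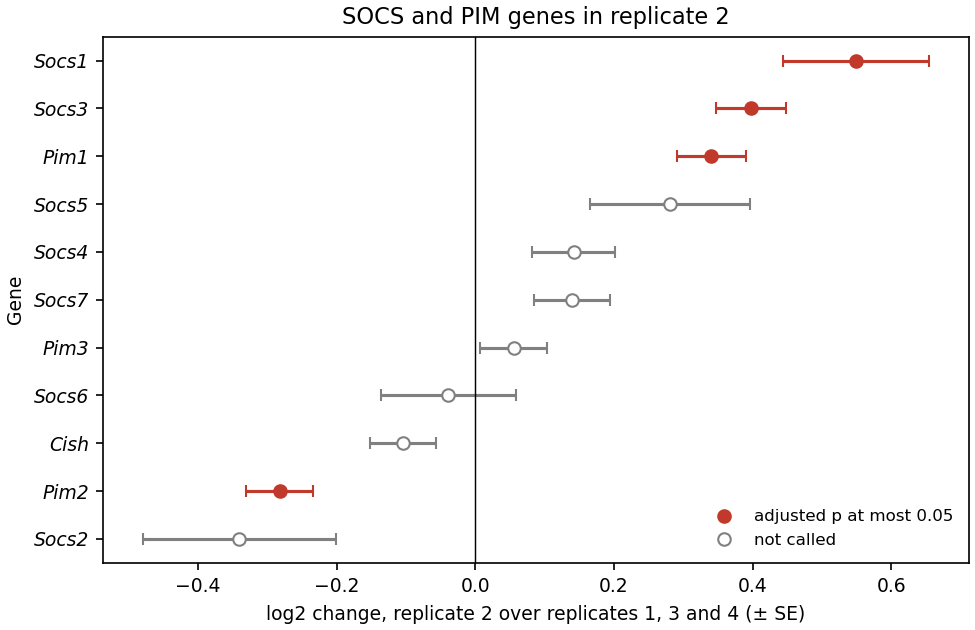
The log2 change of each SOCS and PIM gene in replicate 2 over replicates 1, 3 and 4, with its standard error; filled red points passed the test and open points did not. Socs1, Socs3 and Pim1 lie at 0.55, 0.40 and 0.34 and Pim2 at −0.28, while the open points run from −0.34 (Socs2) to 0.28 (Socs5).

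Cish and Socs2 did not pass the test. Cish, which limits IL-2 and T cell receptor signals, had 129 TPM in replicate 2, against 147, 143 and 144 TPM in replicates 1, 3 and 4 (log2 −0.10 ± 0.05, edgeR adjusted p = 0.131). Socs2, which also restrains growth hormone signalling, had 2.67 TPM in replicate 2, against 3.71, 3.42 and 3.44 TPM (log2 −0.34 ± 0.14, edgeR adjusted p = 0.0897), from 291 counts against 350, 343 and 367. For both, replicate 2 was the lowest library.

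The SOCS genes with long N-terminal regions, Socs4 to Socs7, are less tied to cytokine induction and act also on receptor tyrosine kinases. Socs4 had 37.5 TPM in replicate 2 and 34.0 to 36.9 TPM in the others, and Socs7 37.3 TPM and 34.6 to 35.9 TPM. Their log2 changes were 0.14 ± 0.06 and 0.14 ± 0.05 (edgeR adjusted p = 0.0988 and 0.0751). Socs5 had 15.6 TPM in replicate 2, against 11.9, 13.5 and 14.8 TPM in replicates 1, 3 and 4 (log2 0.28 ± 0.12, edgeR adjusted p = 0.0906). It was called higher once replicate 4 was left out, at a log2 change of 0.35 (edgeR adjusted p = 0.0189). Socs6 had 9.40 TPM in replicate 2 and 9.81 to 10.5 TPM in the others (log2 −0.04 ± 0.10, edgeR adjusted p = 0.835).

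The TPM of replicate 2 lay outside the range of the other 3 libraries for all 10 members, as it did for 71.4% of the genes tested. The same share of genes was 41.5% for replicate 1, 43.7% for replicate 3 and 42.3% for replicate 4. The SD of the log2 level over the 4 libraries was 0.05 for Socs7, 0.06 for Socs4, 0.07 for Socs6 and 0.08 for Cish, and 0.15 to 0.28 for the other 6, with Socs1 the highest. Over the 13062 genes of at least 1 TPM its median was 0.12. Without replicate 2 the SD was 0.02 for Cish, 0.03 for Pim2 and Socs7, 0.05 for Pim1, 0.16 for Socs5 and 0.17 for Socs1, beside a median of 0.07 over those genes. Socs1 and Socs5 thus also varied among replicates 1, 3 and 4.

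Replicates 1, 3 and 4, each set against the other 3, gave no called member and no called gene (edgeR, 0% of 17337 genes each, with 166, 257 and 128 genes at an unadjusted p under 0.05 and no member among them). DESeq2 called 2, 15 and 3 genes there and no member. Those comparisons keep replicate 2 among the other 3 libraries. Without it 68, 108 and 9 genes were called, again with no member.

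Within the families the shares of the summed TPM shifted in replicate 2. Cish held 24.4% of SOCS family TPM in replicate 2, against 31.1% ± 0.727 in replicates 1, 3 and 4 (SD, n = 3). Socs1 held 28.7% in replicate 2 and 23.2% ± 1.89 in the others, and Socs3 27.4% and 24.6% ± 0.106. Per counted length, the order of the 3 leading SOCS genes in replicate 2 was therefore Socs1, Socs3, Cish, and in replicates 3 and 4 it was Cish, Socs3, Socs1. The summed level of the 8 SOCS genes was 527 TPM in replicate 2, against 485, 453 and 456 TPM in replicates 1, 3 and 4.

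Among the PIM kinases Pim1 held 40.1% in replicate 2, against 31.98% ± 0.398 in replicates 1, 3 and 4, and Pim2 38.7%, against 47.5% ± 0.560. Pim3 held 21.2% in replicate 2 and 20.6% ± 0.175 in the others. The sum of all 3 was 686 TPM in replicate 2, against 725, 688 and 715 TPM. The family total in replicate 2 lay close to that of replicate 3 while its makeup differed: Pim1 held more than Pim2 in replicate 2 and less in the other libraries. Which of the pair led in replicate 2 depends on the length used, since Pim2 led there per longest coding transcript. Shares depend on the length used: per longest coding transcript Cish held 51.2% of the SOCS sum over the 4 libraries, against 29.5% per counted length, and Socs1 8.03%, against 24.6%. In the former, counted bases and transcript length do not match, which lowers Socs1 and can raise Cish.

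**Figure D4:**
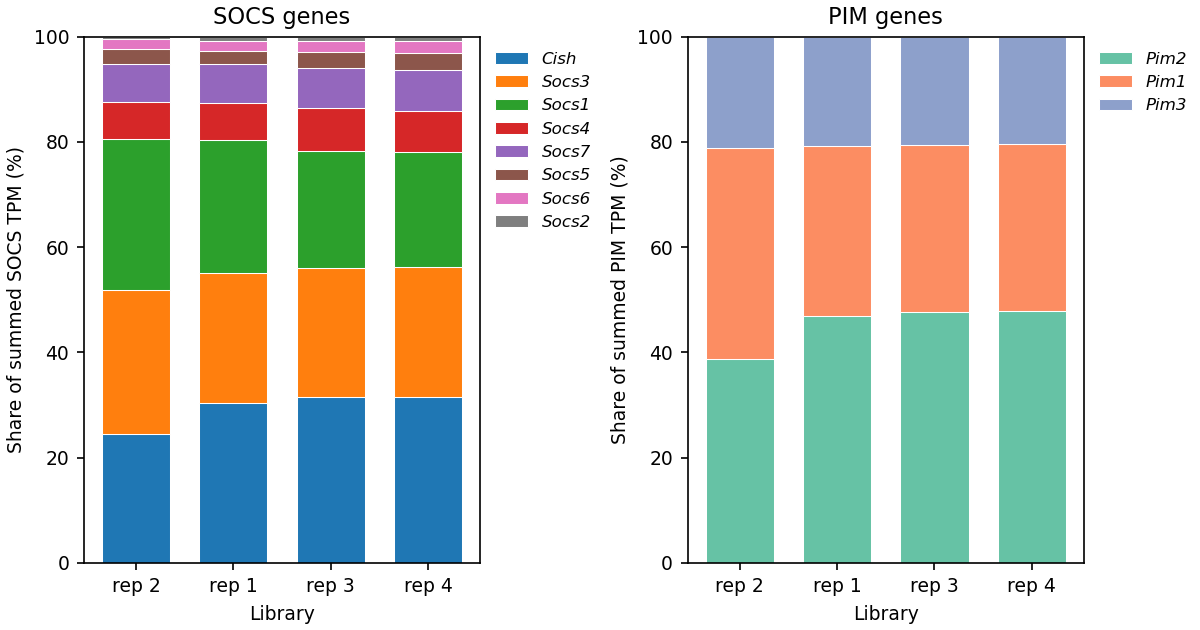
Share of the summed TPM held by each gene of the SOCS family (left) and by each PIM kinase (right), as a percentage, in each library; each bar sums to 100%. In replicate 2 the Cish share is 24.4% and the Pim2 share 38.7%, against means of 31.1% and 47.5% in replicates 1, 3 and 4.

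Upstream of these genes, the cytokine receptors divided, with 4 of 20 higher and 4 lower in replicate 2 (median log2 change 0.05, against −0.01 over all genes tested). This count and those of the lists below are to be read beside the shares over all genes given earlier. The largest rise was that of Il6ra, with 11.1 TPM in replicate 2, against 8.48, 7.61 and 7.83 TPM in replicates 1, 3 and 4 (log2 0.53). Il12rb1 rose by 0.27. The falls included subunits of the IL-2 receptor, whose signal runs through STAT5. Il2ra had 647 TPM in replicate 2, against 979, 973 and 964 TPM in replicates 1, 3 and 4 (log2 −0.53 ± 0.04, edgeR adjusted p = 4.24e-09). Il2rb had 232 TPM, against 441, 428 and 425 TPM (log2 −0.83 ± 0.05, edgeR adjusted p = 1e-10). Il2rg, the common gamma chain, rose by 0.19 ± 0.05 and Il21r, the IL-21 receptor, by 0.18 ± 0.04 (edgeR adjusted p = 0.00924 and 0.00442). Il23r, the IL-23 receptor of Th17 cells, fell to 17.7 TPM in replicate 2, against 24.9, 29.0 and 31.3 TPM (log2 −0.62 ± 0.12, edgeR adjusted p = 0.000865). Il9r fell by 1.55 ± 0.40 (log2, edgeR adjusted p = 0.00665) at a mean of 1.08 TPM.

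Of the 4 Janus kinases, Jak2 fell to 299 TPM in replicate 2, against 437, 442 and 451 TPM in replicates 1, 3 and 4 (log2 −0.51 ± 0.04, edgeR adjusted p = 2.99e-08). Tyk2 rose by 0.19 ± 0.05 (edgeR adjusted p = 0.00678), and Jak1 and Jak3, at mean levels of 179 and 116 TPM, did not pass. Of the 7 STAT genes none rose and 2 fell, Stat6 by 0.17 ± 0.05 and Stat4 by 0.15 ± 0.05 on the log2 scale (edgeR adjusted p = 0.0101 and 0.0227), Stat4 losing its call under DESeq2 (adjusted p = 0.0941) and without replicate 1 (adjusted p = 0.0750). Stat5a and Stat3, which led the list at 341 ± 16.7 and 256 ± 8.78 TPM (n = 4), were not called in replicate 2 (log2 −0.08 ± 0.04 and −0.02 ± 0.04).

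The ubiquitin ligase that the SOCS box recruits was expressed throughout, led by Elob, an elongin subunit, at 798 ± 52.5 TPM (n = 4). Of its 4 genes Elob and Eloc rose in replicate 2, by 0.24 ± 0.05 and 0.21 ± 0.05 (edgeR adjusted p = 0.000684 and 0.00218). Cul5, the cullin scaffold, fell by 0.17 ± 0.05 (edgeR adjusted p = 0.0181, lost under DESeq2 at adjusted p = 0.0806). Among 13 other SOCS box genes tested, of 14 listed, 1 rose and 1 fell. Asb2 rose, with 49.2 TPM in replicate 2, against 38.6, 33.3 and 32.96 TPM in replicates 1, 3 and 4 (log2 0.56 ± 0.09, edgeR adjusted p = 0.000104). Wsb1, the most abundant of that list, fell by 0.28 ± 0.05 (edgeR adjusted p = 0.00017).

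Of 13 other negative regulators of JAK-STAT signalling 4 rose and 2 fell in replicate 2. Usp18, the interferon-induced brake on the type I interferon receptor, had 30.0 TPM in replicate 2, against 3.26, 1.77 and 1.76 TPM in replicates 1, 3 and 4 (log2 3.80 ± 0.23, edgeR adjusted p = 1.17e-06). Cblb, a ubiquitin ligase that limits T cell activation, rose by 0.59 ± 0.05 (edgeR adjusted p = 1.1e-08). The phosphatase gene Ptpn2 fell by 0.26 ± 0.06 (edgeR adjusted p = 0.00164), while Ptpn1 rose by 0.22 ± 0.05 (edgeR adjusted p = 0.0016). Ptpn6, the SHP-1 phosphatase and the highest of the list at 429 ± 29.9 TPM, fell by 0.14 ± 0.05 (edgeR adjusted p = 0.0342).

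PIM kinases act on the proteins of 11 listed genes, and only their transcripts were measured. Their median log2 change in replicate 2 was 0.12, against −0.01 over all genes tested, with changes in both directions. Myc, whose protein PIM1 stabilises, had 601 TPM in replicate 2, against 468, 463 and 499 TPM in replicates 1, 3 and 4 (log2 0.40 ± 0.05, edgeR adjusted p = 2.28e-06). Cdkn1a, a cell cycle inhibitor phosphorylated by PIM1, had 1364 TPM, against 1237, 1128 and 1154 TPM (log2 0.28 ± 0.05, edgeR adjusted p = 0.000244). Cdkn1b, the related inhibitor p27, fell by 0.41 ± 0.08 and Eif4ebp1, a repressor of cap-dependent translation, by 0.29 ± 0.06 (edgeR adjusted p = 0.000364 and 0.000859). Of 17 other STAT target genes, some shared with the lists above, 6 rose and 2 fell. Ccnd2, a G1 cyclin, had 569 TPM in replicate 2, against 365, 369.9 and 367 TPM in the others (log2 0.69 ± 0.04, edgeR adjusted p = 3.39e-11), and Bcl2, a survival factor, rose by 0.38 ± 0.05 (edgeR adjusted p = 4.34e-06).

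**Figure D5:**
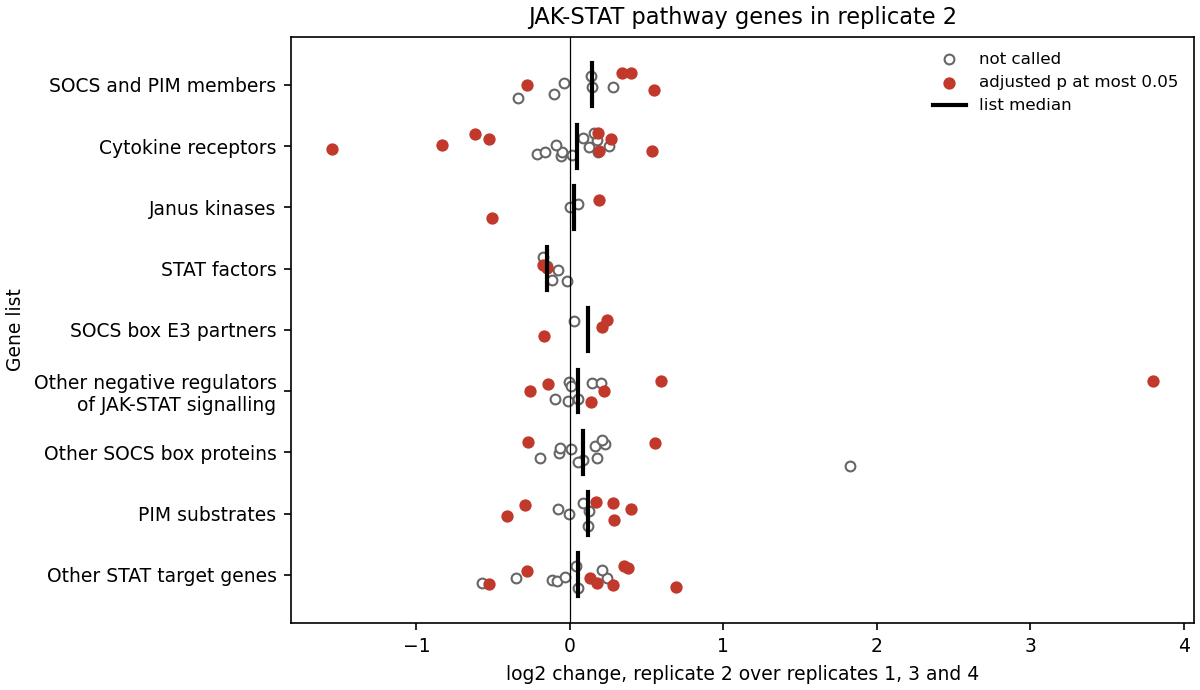
The log2 change in replicate 2 over replicates 1, 3 and 4 for every tested gene of each list; filled red points passed the test, open points did not, and black bars mark list medians. List medians run from −0.15 (STAT factors) to 0.14 (SOCS and PIM members), and Usp18 lies furthest out at 3.80.

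The genes closest in pattern to the 2 most variable members were sought by the root mean square difference of centred log2 levels over the 4 libraries, among protein-coding genes of at least 5 TPM. For Socs1 they were Serpinb6b, Asb2 and Basp1, with differences of 0.0300, 0.0302 and 0.0328 among 9512 genes whose median was 0.273. For Socs2 they were Lrrc61, Dhx32 and Fancc, with 0.00556, 0.00804 and 0.00833 among 9513 genes whose median was 0.168. The 3 genes like Socs1 were highest in replicate 2, such as Serpinb6b with 234 TPM, against 182, 158 and 155 TPM in replicates 1, 3 and 4. The 3 like Socs2 were lowest there, such as Dhx32 with 44.2 TPM, against 61.1, 55.9 and 57.0 TPM. With 4 libraries, 1 of which stands apart, this likeness is a description of these libraries.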

How the data were processed

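RNA was counted in 4 libraries of mouse Th17 cells. Per the file headers, featureCounts 1.4.6-p4 assigned read pairs with both ends mapped to the genes of GENCODE M13, using strand option 2. The authors deposited these raw counts as a table for each library, and the labels name mm10 as the build. The tables also hold a length per gene, its summed exon length, per the file headers. No source used here gives the aligner's version or any trimming. Symbols came from GENCODE vM21 (50376 of 50600 identifiers matched), and promoter windows from RefSeq (GRCm38.p6, the assembly behind mm10).

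Counts were divided by that length and scaled in each library to give TPM. With edgeR 4.0.16 (R 4.3.3, quasi-likelihood, TMM, robust prior, at least 10 summed counts, Benjamini-Hochberg over all 17337 genes, threshold 0.05), each replicate was compared with the other 3, and levels were tested against 1 TPM in an intercept-only fit whose F statistic was formed from the deviances. A standard error is the size of the log2 value divided by the root of its F. The fits were run on simulated counts in which all libraries shared the same spread and a small set of genes changed. This did not test a library that differs as widely as replicate 2. A count of 3, the floor for a gene at 0, stood for 0.0795 to 0.0906 CPM. DESeq2 1.42.0, other scalings, filters and lengths and leaving out each replicate were alternatives. The robust prior follows an earlier analysis of these tables. Named genes are the members, Pim3, and genes from each list. These are the 3 with the highest mean TPM and the 3 called genes with the largest change in replicate 2. Not all of them are described, and Ptpn1 comes under the first. Il6ra and Il12rb1 were added as the remaining cytokine receptors that rose. Members and lists were chosen with earlier results of these data known. A list of markers is not reported here.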

Additional observations from a re-analysis of the deposited data

Results flagged for a closer look

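The Pim2 level in replicate 2 stood far from the other libraries: on the log2 scale its gap to the nearest library was 0.840 of the range of all 4 (265 TPM in replicate 2, against 339.8, 329 and 342 TPM in replicates 1, 3 and 4), above the critical value of Dixon's test for 4 samples. For Cish and Socs2 that ratio was 0.768 and 0.759 and did not pass. Chance flags about 1 in 20 such groups, and 10 members were looked at. The share of all genes that this test flags was not computed. Replicate 2 lay outside the range of the other libraries for 71.4% of the genes tested. Replicate 2 also stood apart in its Th17 markers, with a sum of 1527 TPM, against 5554 to 6304 TPM in the others; their part in the Pim2 value was not tested.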

How the results depend on the processing

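Socs1, Socs3, Pim1 and Pim2 kept their calls in replicate 2 under DESeq2, both other scalings, both other filters, without the robust prior and without replicate 1, 3 or 4, with log2 changes of 0.49 to 0.65, 0.37 to 0.43, 0.31 to 0.37 and −0.31 to −0.27. All 10 members also lay above 1 TPM, or 1 CPM where no length was used, under every alternative run for levels. Genes called in replicates 1, 3 and 4, 0 in each, became 2, 15 and 3 under DESeq2, and 17 in replicate 3 with no filter; leaving out a replicate gave 0 to 68, 0 to 108 and 0 to 9. Without length correction the level differences turned round for Pim1 and Cish (−0.52), Socs1 and Socs4 (−0.79), Socs4 and Socs7 (−0.075) and Socs5 and Socs6 (−0.42). Per longest coding transcript, an alternative chosen after seeing the data, they turned round for Pim1 and Cish (−0.44), Socs4 and Socs7 (−0.047), Socs5 and Socs6 (−0.044) and Socs6 and Socs2 (−0.063). That alternative changed the lengths only and kept the reads of all counted exons. Socs4 and Socs7 ranged from −0.025 to 0.031 as libraries were left out. The Cish share became 43.4% of counts and 51.2% per coding transcript, and the Pim2 share 53.4% per coding transcript. No paired analysis was possible because the libraries form 1 group. With 291 to 367 counts per library, Socs2 was the member measured with the fewest reads.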
